A study of Mus musculus with 10 samples.

Results

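The regions described here are the H3K27me3 peaks of mouse embryonic stem cells that were found by ChIP-seq and by no CUT&RUN peak. A ChIP-seq peak was taken when 0 bp of it lay in any CUT&RUN peak, and 19753 of the 41159 ChIP-seq peaks met this rule (47.992%, 95% Wilson interval 47.509% to 48.475%, counting error only). They are called ChIP-only peaks, and the other 21406 ChIP-seq peaks are called shared. The CUT&RUN list held 66242 peaks. Each list came from 1 sample, so that a peak has no replicate check.

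All cells were of the E14 line and carried NPM1, a nucleolar protein that chaperones histones, in a form that is destroyed when auxin is added. The name inside the peak files points to clone 38, so that the chromatin data come from 1 clone of edited cells. The cells were grown with LIF and inhibitors of MEK (PD0325901, 1 µM) and GSK3 (CHIR99021, 3 µM), and were held in G1 and then released. ChIP-seq used cells without auxin at 6 h, fixed with paraformaldehyde and sheared to fragments of about 250 bp. CUT&RUN used control cells at 12 h, in which a nuclease bound to the antibody cuts and frees the DNA around the mark in isolated nuclei. RNA was sequenced at 12 h from 2 libraries without auxin and 2 libraries with auxin. The assay and the time differ together between the peak lists and cannot be told apart. The input, IgG, auxin and PRC2 inhibitor chromatin samples were not analysed here.

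H3K27me3 is the trimethyl mark that Polycomb repressive complex 2 (PRC2) places on histone H3 through EZH2 or EZH1. In embryonic stem cells it is known from CpG-rich starts of silent developmental genes, such as the Hox clusters, where PRC1 reads it through its CBX subunits, and as a weaker layer over inactive chromatin between genes.

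Promoter sequence at ChIP-only peaks ranged from nearly free of CpG to CpG-rich. RefSeq promoters (250 bases before to 50 after a start, assembly GRCm38.p6, which mm10 names) lay wholly inside a ChIP-only peak in 115 cases of 32619 on the peak chromosomes. Of these 115, 17 (14.8%, Wilson interval 9.44% to 22.4%) had at least 50% G+C and a ratio of observed to expected CpG of at least 0.6, the form of a CpG island. The share was 17.4% (13.7% to 21.9%) of the 327 promoters wholly inside a shared peak and 35.5% (34.9% to 36.0%) of the 29123 promoters that met no peak. Among promoters only partly in a peak, it was 24.3% (20.1% to 29.0%) of 354 at ChIP-only peaks and 22.8% (19.1% to 26.9%) of 435 at shared peaks. Below, 6 promoters are printed, chosen after their values were seen, to show this range among the 35 genes that had only ChIP-only peaks at the 5′ end and a promoter wholly inside one. CpG pairs are in capitals.
Hes7: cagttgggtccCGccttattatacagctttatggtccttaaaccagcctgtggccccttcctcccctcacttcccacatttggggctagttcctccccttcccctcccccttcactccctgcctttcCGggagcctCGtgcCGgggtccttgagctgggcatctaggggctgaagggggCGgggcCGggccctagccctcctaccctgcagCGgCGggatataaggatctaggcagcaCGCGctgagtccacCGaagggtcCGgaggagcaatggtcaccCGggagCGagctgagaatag
Chat: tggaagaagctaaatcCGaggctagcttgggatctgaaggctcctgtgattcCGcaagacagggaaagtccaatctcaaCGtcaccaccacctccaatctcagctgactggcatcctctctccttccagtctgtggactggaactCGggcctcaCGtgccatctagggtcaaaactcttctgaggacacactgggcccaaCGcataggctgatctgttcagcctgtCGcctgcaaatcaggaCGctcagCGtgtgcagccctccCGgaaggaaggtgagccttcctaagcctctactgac
Cmtm5: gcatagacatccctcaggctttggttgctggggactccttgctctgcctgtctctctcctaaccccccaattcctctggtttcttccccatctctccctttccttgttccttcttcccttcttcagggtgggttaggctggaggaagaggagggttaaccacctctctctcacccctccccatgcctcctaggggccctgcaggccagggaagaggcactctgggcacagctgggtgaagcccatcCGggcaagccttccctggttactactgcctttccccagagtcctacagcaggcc
Slc5a5: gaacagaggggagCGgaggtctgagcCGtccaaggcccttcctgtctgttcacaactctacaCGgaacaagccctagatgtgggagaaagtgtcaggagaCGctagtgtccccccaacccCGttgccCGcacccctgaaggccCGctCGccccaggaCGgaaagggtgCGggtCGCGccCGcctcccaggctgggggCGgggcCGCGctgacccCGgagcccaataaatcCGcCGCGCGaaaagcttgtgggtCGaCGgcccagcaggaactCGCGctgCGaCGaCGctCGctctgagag
Nfatc2: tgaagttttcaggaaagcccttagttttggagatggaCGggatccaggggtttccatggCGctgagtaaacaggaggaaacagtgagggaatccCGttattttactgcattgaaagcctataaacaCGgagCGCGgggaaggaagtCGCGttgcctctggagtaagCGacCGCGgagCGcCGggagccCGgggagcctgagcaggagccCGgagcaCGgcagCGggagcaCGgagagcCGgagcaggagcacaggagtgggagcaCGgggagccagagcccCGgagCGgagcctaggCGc
Dio3: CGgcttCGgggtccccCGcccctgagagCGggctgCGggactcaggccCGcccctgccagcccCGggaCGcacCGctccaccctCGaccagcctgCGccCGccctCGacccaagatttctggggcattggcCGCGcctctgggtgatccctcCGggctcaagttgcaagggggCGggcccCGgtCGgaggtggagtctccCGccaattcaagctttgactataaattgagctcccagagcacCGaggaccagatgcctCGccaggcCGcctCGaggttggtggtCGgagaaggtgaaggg
The first 3 fall short of the island form. Their ratios of observed to expected CpG are 0.473, 0.436 and 0.0401, against a median of 0.387 over all promoters. Hes7, a repressor of the somite clock, has 14 CpG in its 300 bases (chr11:69120203-69120502, plus strand) inside a peak of 1143 bp (chr11:69119885-69121027) with a fold enrichment of 4.35. Chat, the enzyme that makes acetylcholine, has 10 CpG (chr14:32465860-32466159, minus strand), and Cmtm5, a membrane protein gene, has 1 (chr14:54936247-54936546, plus strand). The last 3 have the island form. Slc5a5, the iodide transporter of the thyroid, has 29 CpG (chr8:70892708-70893007, minus strand), Nfatc2, a calcium-responsive transcription factor, has 23 (chr2:168601608-168601907, minus strand), and Dio3, an imprinted enzyme that inactivates thyroid hormone, has 25 (chr12:110278980-110279279, plus strand). Over the 35 promoters the median was 7 CpG (range 1 to 29), and 31 of the 35 genes had a mean under 1 RPKM without auxin. The TATA motif TATAAA, read on both strands, was found in 12.2% of the 115 promoters and in 13.7% of all 32619. CCAAT stood in 36.5% against 37.6%, and the GC box GGGCGG in 24.3% against 35.9%. Of the 354 promoters partly in a ChIP-only peak, 30.2% held GGGCGG. These matches describe letters only.

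ChIP-only peaks were short. Their median width was 396 bp (quartiles 299 and 536, longest 2710), against 508 bp (360 and 773) for shared peaks, and 22.118% of them had the smallest width in the list, 289 bp, against 11.216% of shared peaks. The fold enrichment given by the authors' peak caller had a median of 3.25 (quartiles 3.05 and 3.51), against 3.34 (3.11 and 3.64), and the median −log10 q was 1.69 against 1.85. Peaks of at least 1000 bp made up 3.756% of ChIP-only and 14.865% of shared peaks. A longer peak has more room to meet another, so that width belongs to the rule and these values carry no test. Together the ChIP-only peaks covered 9.24 Mb, 39.644% of the bases in ChIP-seq peaks.

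**Figure D1:**
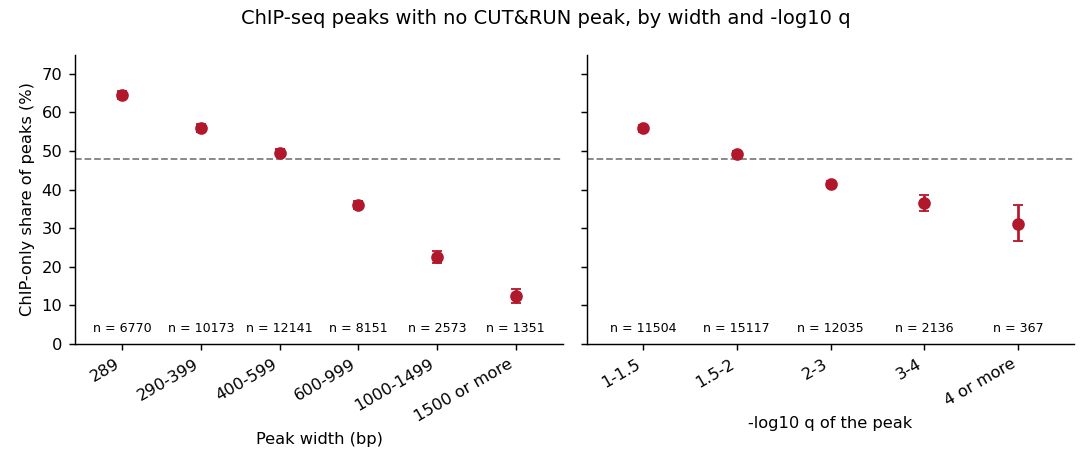
Share of ChIP-seq peaks that met no CUT&RUN peak (vertical axis, %) by peak width in bp (left) and by −log10 q (right), with 95% Wilson intervals as bars, the number of peaks per class at the foot and the share over all peaks (48.0%) as a dashed line. The share falls from 64.5% at 289 bp to 12.3% at 1500 bp or more, and from 55.9% to 31.1% over the q classes.

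The ChIP-only share fell with width in every class plotted, from 64.5% of the 6770 peaks at the smallest width to 12.3% of the 1351 peaks of 1500 bp or more. It also fell with the strength of the call, from 55.9% of the peaks with a −log10 q under 1.5 to 31.1% of the 367 peaks at 4 or more. Still, 742 ChIP-only peaks were of at least 1000 bp and 114 had a −log10 q of 4 or more.

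Most ChIP-only peaks lay close to a CUT&RUN peak. The median gap to the nearest was 1539 bp (quartiles 491 and 5367), 25.383% lay within 500 bp and 39.984% within 1 kb. Only 915 peaks (4.632%) were more than 50 kb away. Those within 500 bp had a median width of 417.5 bp, and 43.9% of them were intergenic. The 915 farthest had a median width of 353 bp, and 64.7% of them were intergenic. At the edge of the rule the values of both kinds met. The 620 ChIP-only peaks within 50 bp of a CUT&RUN peak had a median width of 417 bp and a median fold enrichment of 3.25, and the 693 shared peaks with an overlap of 1 to 50 bp had 435 bp and 3.32. For 14 ChIP-only peaks the gap was 0 bp, among them a peak of 332 bp at Fam78b (chr1:167002065-167002396) and a peak of 408 bp in an exon of Hoga1 (chr19:42059776-42060183). Just outside the rule, peaks of 345 bp (chr17:73298201-73298545) and 588 bp (chr1:166345800-166346387) shared 1 bp with a CUT&RUN peak.

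ChIP-only peaks neighboured each other. For 58.4% of them (Wilson interval 57.7% to 59.1%) the nearest other ChIP-seq peak was also ChIP-only, against 32.1% (31.5% to 32.7%) for shared peaks. They were also more scattered, with a median gap of 2575 bp to the next ChIP-seq peak against 977 bp. In the 13903 stretches between consecutive CUT&RUN peaks that held any ChIP-only peak, 10396 held 1 and 26 held 10 or more. Of these 26 stretches, 22 were on chromosome 14.

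Chromosome 14 stood apart from the other chromosomes. There 890 of 1243 ChIP-seq peaks were ChIP-only (71.6%, Wilson interval 69.0% to 74.0%), whereas on the other autosomes the share ran from 44.1% on chromosome 2 to 52.9% on chromosome 8, which held the most ChIP-only peaks (2220). On the X chromosome it was 87.8% (75.8% to 94.3%), from 43 of only 49 peaks. In windows of 5 Mb with at least 20 ChIP-seq peaks, the excess on chromosome 14 lay in 7 neighbouring windows from 45 to 80 Mb, a region chosen after the values were seen. Its end at 80 Mb is set by that minimum. From 80 to 105 Mb ChIP-seq peaks were sparse, and 28 of 30 were ChIP-only (93.3%, 78.7% to 98.2%) beside 5 CUT&RUN peaks. The 7 windows held 634 ChIP-seq peaks, of which 574 were ChIP-only (90.5%, 88.0% to 92.6%). Before 45 Mb the share was 260 of 535 (48.6%, 44.4% to 52.8%) and beyond 105 Mb it was 28 of 44 (63.6%, 48.9% to 76.2%). The other chromosomes together gave 47.3%.

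**Figure D2:**
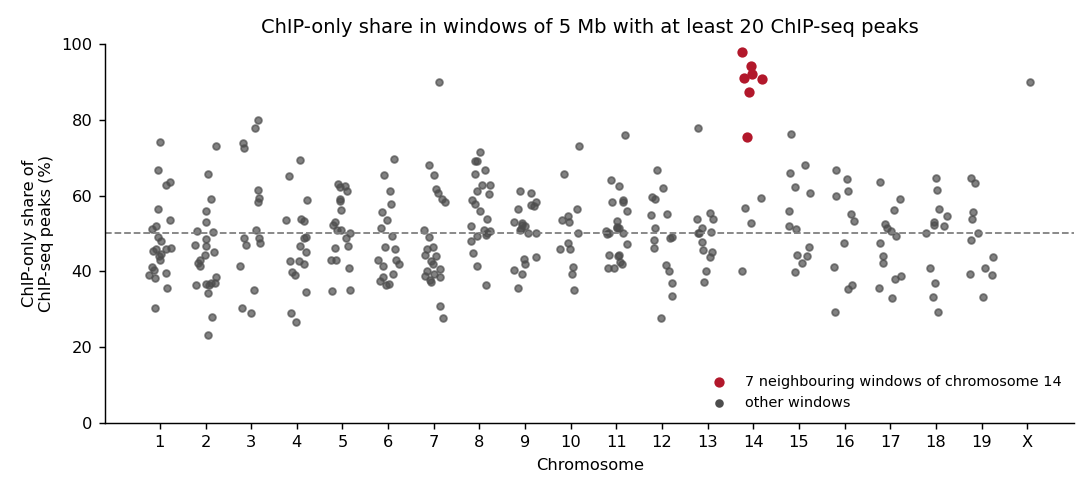
Share of ChIP-seq peaks that met no CUT&RUN peak (vertical axis, %) in each 5 Mb window with at least 20 ChIP-seq peaks (points), by chromosome (horizontal axis, with points spread sideways at random), and the median over the 327 windows (50.0%) as a dashed line. The 7 red windows of chromosome 14 lie between 75.6% and 97.8%, and the other 320 between 23.1% and 90.0%.

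The region differed in its CUT&RUN peaks more than in its ChIP-seq peaks. It held 156 CUT&RUN peaks, or 0.246 for each ChIP-seq peak, against 1.93 before 45 Mb on chromosome 14 and 1.62 on the other chromosomes. The CUT&RUN peaks there were short, with a median of 507.5 bp against 857.5 bp on the rest of chromosome 14. The ChIP-only peaks there were like those elsewhere, with a median width of 407.5 bp against 395 bp and a median fold enrichment of 3.27 against 3.25, but their median gap to a CUT&RUN peak was 24602.5 bp. The region's share of RNA counts was 1.45% and 1.42% in the libraries without auxin and 1.41% and 1.42% in those with auxin. Leaving the region out lowered the ChIP-only share of all peaks to 47.3%. The cause was not tested.

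The stretches with the most ChIP-only peaks show what this region holds. The largest, 29 peaks with no CUT&RUN peak between them over 155515 bp, covers much of Xkr6, a gene of the XK family of lipid scramblase relatives, with peaks from 63592601 to 63743664 on chromosome 14. The body of Xkr6 held 43 ChIP-only peaks and 1 shared peak. Next came 19 peaks around Ebf2, a transcription factor of fat and nerve cell lineages, and 18 around Blk, a kinase of B cells, and Fam167a. Another stretch held 15 peaks over Cmtm5, Il25, Slc7a8, Slc22a17 and the cardiac myosin gene Myh6.

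Outside chromosome 14, the stretch with the most peaks lay in the Hoxb cluster. It held 14 ChIP-only peaks from 96188286 to 96276168 on chromosome 11, between Hoxb13, the most posterior gene of the cluster, and Hoxb9, with a summed width of 8857 bp over 91096 bp free of CUT&RUN peaks. An equal number lay in Csmd1, a large gene of nervous tissue on chromosome 8. Its body held 50 ChIP-only and 9 shared peaks. Other bodies with many ChIP-only peaks were Rbfox3, a splicing factor of mature neurons (69, with 101 shared), Camta1 (58, with 44 shared), Asic2, an acid-sensing channel (52, with 49 shared), Csmd2 (45, with 24 shared), the cadherin Cdh13 (42, with 24 shared) and the calcium pump Atp2b2 (40, with 59 shared). Gm20388 counted 310, but its model of 4434.882 kb spans many other genes. Fgfr2 counted 52, with 74 shared, over a model of 2960.9 kb. These counts are not scaled to body length, which was 296.945 kb for Atp2b2, 421.836 kb for Rbfox3 and 1643.05 kb for Csmd1. In all, 4114 gene bodies held a ChIP-only peak, 2207 of them only 1.

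ChIP-only peaks lay at 5′ ends and in exons less often than shared peaks, and between genes more often, by shares whose intervals did not overlap. Within 1 kb of a gene's 5′ end lay 1517 (7.68%, Wilson interval 7.32% to 8.06%), against 9.59% of shared peaks, 4.43% of the CUT&RUN peaks that met no ChIP-seq peak, and 2.31% of the bases between the first and last gene of each chromosome. A further 2314 (11.7%) touched an exon (16.6% of shared peaks, 2.78% of bases) and 6177 (31.3%) an intron (34.1% of shared peaks, 36.5% of bases). The other 9745 (49.3%) were intergenic, against 39.8% of shared peaks and 58.4% of bases. The promoter and exon peaks were wider than the rest, with medians of 446 and 440 bp against 385 bp in introns and 384 bp between genes. Wider peaks meet a feature more often. By the peak's centre, 5.73% of ChIP-only and 6.74% of shared peaks lay within 1 kb of a 5′ end. Exons held 6.4% and 8.3% by centre, and 50.3% and 40.9% were intergenic.

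**Figure D3:**
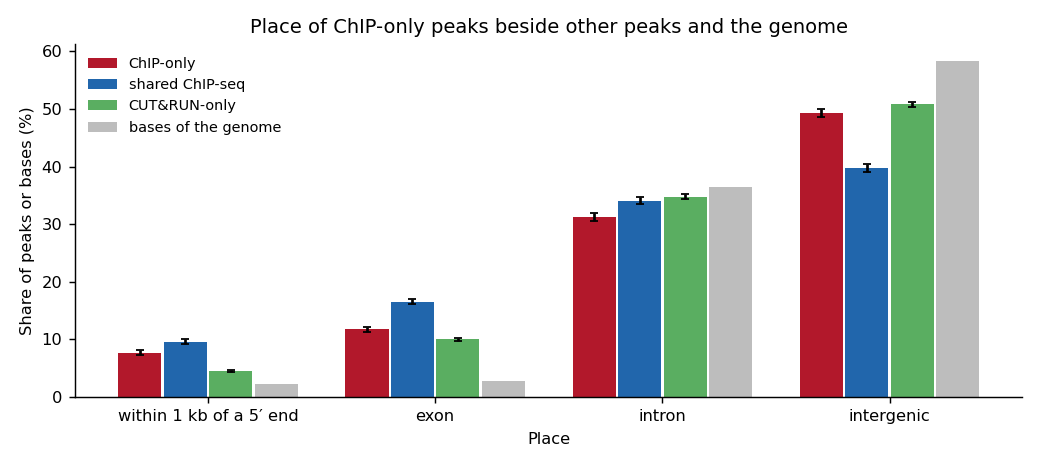
Share (vertical axis, %) of ChIP-only peaks, shared ChIP-seq peaks, CUT&RUN peaks that met no ChIP-seq peak, and bases of the genome, within 1 kb of a 5′ end, in an exon, in an intron or between genes (horizontal axis), with 95% Wilson intervals as bars on the peak shares. ChIP-only peaks were intergenic in 49.3% of cases, shared peaks in 39.8%.

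The strongest and the widest ChIP-only peaks were of different kinds. The highest fold enrichment, 7.25 with a −log10 q of 13.6, belonged to a peak of 434 bp over an exon of Ctcf, the insulator protein (chr8:105664667-105665100), 22747 bp from the nearest CUT&RUN peak. The next were an intergenic peak of 314 bp on chromosome 8 (chr8:19935806-19936119, fold enrichment 6.21), a peak near Tmem125 (chr4:118547406-118548530, 6.05), a peak over an exon of Atp2b2 (chr6:113760395-113760983, 5.88) and a peak at the 5′ end of Insm2, a zinc finger gene of neuroendocrine cells (chr12:55598866-55599285, 5.79). Their widths were 434, 314, 1125, 589 and 420 bp, and none of them was among the 5 widest. Those were at Cpne6 (chr14:55510588-55513297, 2710 bp), Vsig10l (chr7:43461806-43464511, 2706 bp), Lingo3 (chr10:80833472-80836159, 2688 bp), Nr2f6 and Ocel1 (chr8:71378763-71381412, 2650 bp) and Lmx1b, a homeobox gene of limb and midbrain (chr2:33637910-33640434, 2525 bp). Their fold enrichments ran from 3.68 to 4.25. Among promoters, high values were also found at Osbp2 (5.19), Cacng5, of the calcium channel gamma subunit family (4.94), Lmx1b (4.84, shared with C130021I20Rik) and Fstl3 (4.80), and at a peak (5.13) shared by the 5S rRNA copy n-R5s136 and Gm24089.

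The RNA libraries held 13353446 to 16046290 counts. The stem cell markers fixed for this check were present, with means without auxin from 59.5 to 1317 RPKM (counts divided by the TMM-scaled library size and the exon length) over 10 genes. Of 9 fibroblast markers, 7 were under 1 RPKM in both libraries without auxin, as were 4 of 5 primitive endoderm markers, whereas of the 5 trophectoderm markers Elf5 was at 0 in every library, Cdx2 had 1.77 and 2.19 RPKM and Eomes, Krt8 and Krt18 had 10.1 to 19.2 RPKM without auxin. The Npm1 transcript stood at 397.0 and 356.9 RPKM without auxin and 316.2 and 287.7 RPKM with auxin, which does not check the removal of the protein. No label says whether the replicate libraries came from separate cultures, and p-values measure only the spread between them.

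Genes with only ChIP-only peaks at the 5′ end were mostly silent, but less so than genes with shared peaks. These 921 genes had at least 1 ChIP-only peak, no shared peak and no CUT&RUN peak within 1 kb of the 5′ end. The ChIP-seq peaks are of 6 h and the RNA is of 12 h, whereas a shared peak also met a CUT&RUN peak of 12 h. Without auxin their median was 0.0585 and 0.0559 RPKM in the libraries, against 0.0331 and 0.0427 RPKM for all placed genes, many of which have no counts. No counts were found for 36.8% of the 921 and 43.5% of the genes without a peak. Of the 921, 732 had a mean under 1 RPKM (79.5%, Wilson interval 76.8% to 82.0%). Of the 1519 genes with shared peaks and no ChIP-only peak, 92.0% (90.6% to 93.3%) were under 1 RPKM, as were 91.4% of the 2396 genes with a CUT&RUN peak alone, 91.6% of the 558 genes with ChIP-only and other peaks, and 61.2% of the 27349 genes without a peak. In the single libraries, 80.3% and 78.9% of genes with only ChIP-only peaks were under 1 RPKM, against 92.3% and 91.7% of genes with shared peaks. Over protein-coding genes the shares were 72.9% of 628 and 90.1% of 1100. In RNA from many cells, fewer cells that express a gene and less RNA in each cannot be told apart.

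**Figure D4:**
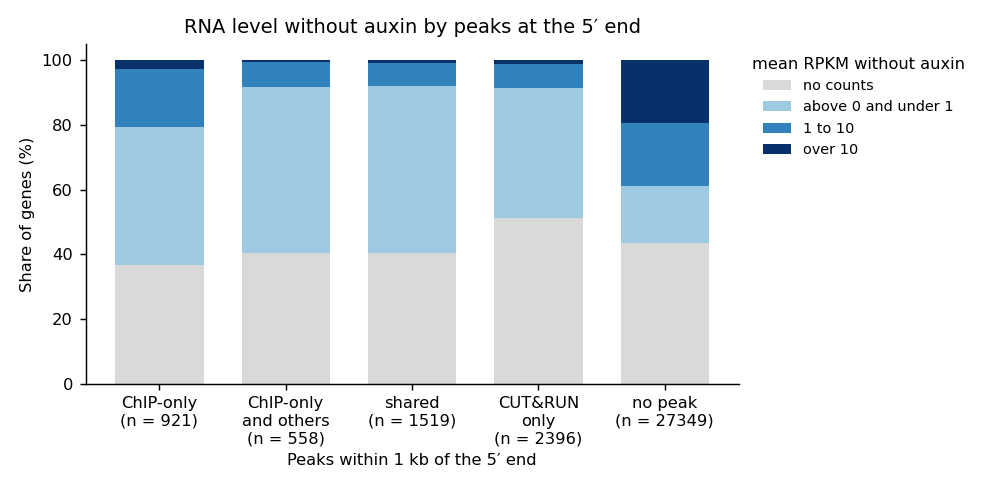
Share of genes (vertical axis, %) by mean RPKM in the 2 libraries without auxin (colours), for genes grouped by the peaks within 1 kb of the 5′ end (horizontal axis, with the number of genes). Levels of 1 RPKM or more are found in 20.5% of genes with only ChIP-only peaks (17.8% from 1 to 10 and 2.71% over 10) and in 38.8% of genes with no peak.

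The share differed with the side on which the ChIP-only peak lay. With the peak over the 5′ end itself, 87.8% of 147 genes (Wilson interval 81.5% to 92.1%) were under 1 RPKM. With peaks on the upstream side only it was 73.0% of 285 (67.5% to 77.8%), on the downstream side only 80.5% of 411 (76.4% to 84.1%), and on both sides 82.1% of 78 (72.1% to 89.0%). The share hardly differed with peak height, at 80.4% below and 78.5% at or above the median fold enrichment. The difference by side was not tested, and the intervals for upstream, downstream and both sides overlap. Of the 8 genes chosen for the highest RNA, 5 had the peak upstream only: the tropomyosin Tpm3 (69.0 and 69.3 RPKM in the libraries without auxin), the elongation factor subunit Eef1d (47.2 and 45.4), the endoplasmic reticulum receptor Kdelr1 (42.8 and 42.3), Pced1b (31.3 and 31.2) and the lysosomal transporter Mfsd1 (27.3 and 23.3). The RNA-binding protein gene Rbm38 (72.0 and 82.4), Crip2 (32.9 and 33.9) and the septin Sept9 (23.9 and 22.4) had it downstream. The peak at Tpm3 (chr3:90071417-90071891) was 308965 bp from the nearest CUT&RUN peak.

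The genes of the printed promoters differed in level. Hes7 was at 0.0388 and 0.0375 RPKM without auxin, Chat was listed at 0 in both libraries, and Cmtm5 was at 0 and 0.156 RPKM. Slc5a5 had 0.792 and 0.996 RPKM. Nfatc2 had 1.41 and 1.75 RPKM and Dio3 9.07 and 12.4 RPKM. CpG content and level did not go together in every case among the 35: the island-like C230034O21Rik and Lypd4 were at 0 RPKM, and Nphp4, with a CpG ratio of 0.28, had 2.34 RPKM. These 3 were chosen after their values were seen.

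These genes included 30 developmental transcription factor genes. They come from 228 genes on 7 lists of transcription factor families (13.2%, against 2.81% of all 32743 placed genes, with no test of the difference), of which 63 had shared peaks, 32 had both kinds or a ChIP-only and a CUT&RUN peak, and 32 had CUT&RUN alone. Hox genes gave 6 of 38 (Hoxa9, Hoxb13, Hoxc4, Hoxc5, Hoxc10, Hoxd8), and other homeobox genes 11 of 80, among them Alx1, Irx1, Irx5, Lmx1b, Msx1 and Onecut2. Forkhead genes gave 6 of 44 (Foxc2, Foxd2, Foxd4, Foxe1, Foxn4, Foxp1) and proneural bHLH genes 4 of 25 (Ascl2, Atoh1, Neurog2, Olig3). The GATA, T-box and Sox lists gave 1 each, namely Gata4, Tbx21 and Sox9. Of the 30, 21 were under 1 RPKM without auxin. Sox9 stood at 0.102 and 0.0984 RPKM and Neurog2 at 0.0316 and 0.0305 RPKM.

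Signalling genes were also found. FGF genes gave 6 of 22 (27.3%: Fgf3, Fgf9, Fgf11, Fgf16, Fgf18, Fgf22), Wnt ligands and receptors 5 of 37 (13.5%, all ligands: Wnt4, Wnt5a, Wnt5b, Wnt7a, Wnt9a), and the BMP and TGF-beta list 4 of 34 (11.8%), namely the ligands Bmp7 and Gdf1 and the BMP-binding proteins Nog and Bmper. Ion channels gave 15 of 134 and protocadherins 5 of 35. Against 2.81% of all placed genes, the shares were 4.19% of solute carriers (15 of 358), 1.32% of G protein-coupled receptors (16 of 1214, of which 11 are odorant receptors) and 0.563% of Zfp genes (2 of 355). None of 66 histone and 82 ribosomal protein genes was among them. The imprinted genes Cdkn1c and Igf2r were among them. Shared peaks without a ChIP-only peak were found at more ion channels (35), Wnt list genes (10), solute carriers (29), G protein-coupled receptors (33) and Zfp genes (8). They were found at fewer FGF genes (1), BMP and TGF-beta list genes (1), protocadherins (4) and imprinted genes (1). A further 13 protocadherins had CUT&RUN peaks alone. The lists were chosen with earlier results of these data known.

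Of 1005 RefSeq hairpins, 11 lay in a ChIP-only peak and 23 in a shared peak. The 11 included Mir483, which sits in the Igf2 gene (chr7:142654924-142654996), Mir338 (chr11:120014765-120014862) and Mir7b (chr17:56242988-56243098).

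The RNA change with auxin was measured independently of the peak lists, and no value here shows the loss of the NPM1 protein or separates it from auxin itself. After 12 h with auxin, more genes with only ChIP-only peaks rose than fell. Of the 921 genes, 372 passed the filter on low counts. By edgeR's quasi-likelihood test with Benjamini-Hochberg adjustment over all 13522 tested genes, 84 of them rose and 21 fell. DESeq2 called 44 and 15 of them, and its shares over all tested genes were not taken. By edgeR, 13.0% of all tested genes rose and 14.5% fell. The 84 are 22.6% and the 21 are 5.65% of the 372, and the median log2 fold change was 0.24 against 0.01 over all placed tested genes. Genes with shared peaks gave 75 higher and 16 lower of 410, with a median of 0.29, and the difference between these 2 groups was not tested. A gene that is low without auxin passes the filter more easily when it is high with auxin, so these shares are a description and no support for a rise. Split by the mean over all 4 libraries, the median log2 fold change was 0.39 for the 170 tested genes under 1 RPKM, against 0.25 for all tested genes under 1 RPKM. It was 0.20 for the 202 genes of 1 RPKM or more, against −0.01. Of those 202, 55 rose and 18 fell, against 1451 and 1885 of 11118. The 202 were lower without auxin than the 11118, with medians of 2.69 and 9.35 RPKM, so the sets were not matched in level. The split also uses the libraries with auxin, and it too is a description and no support for a rise. The summed level of the 5 primitive endoderm markers was 2.86 and 2.98 RPKM without auxin and 4.10 and 5.17 RPKM with auxin, and that of the 9 fibroblast markers was 126 to 131 RPKM and 101 to 105 RPKM, nearly all of it Vim (129 and 125, then 103 and 98.6 RPKM). The other fibroblast markers did not move together. Col1a1 had 0.342 and 0.320 RPKM, then 0.483 and 0.462 RPKM. Thy1 had 1.38 and 1.21 RPKM, then 1.19 and 1.71 RPKM. Dcn had 0.236 and 0.0976 RPKM, then 0.1415 and 0.0855 RPKM. The summed level of the 5 trophectoderm markers was 41.8 to 49.2 RPKM without auxin and 40.4 to 49.0 RPKM with auxin, while Cdx2 went from 1.77 and 2.19 to 4.76 and 4.86 RPKM and Eomes from at least 13.5 RPKM in both libraries to 4.65 and 5.22 RPKM. Their part in the result was not tested. Replicate libraries differed more with auxin (chi-square per degree of freedom of 11.9) than without (4.00).

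**Figure D5:**
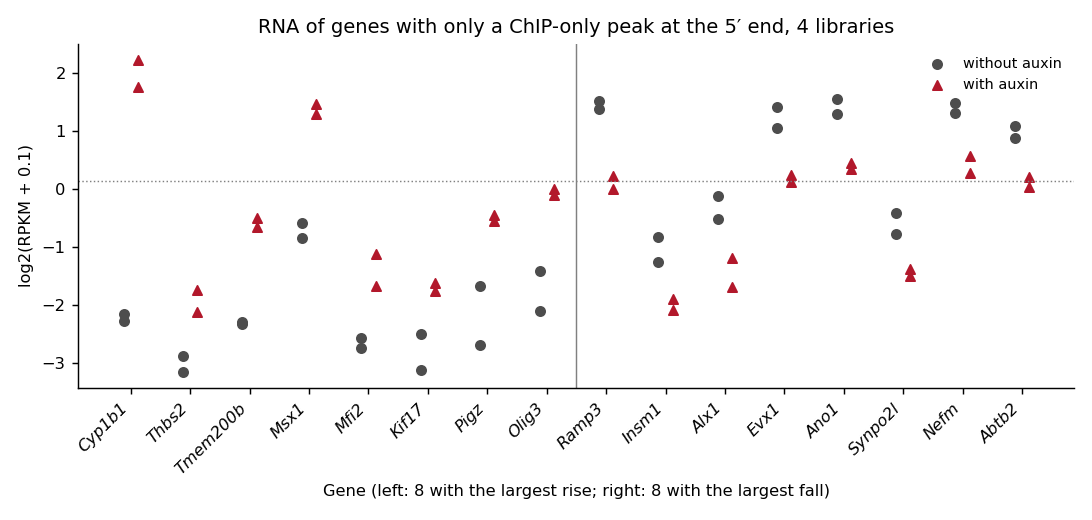
RNA level as log2(RPKM + 0.1) (vertical axis) in each library without auxin (grey circles) and with auxin (red triangles) for the 8 genes with only ChIP-only peaks at the 5′ end that rose most (left) and the 8 that fell most (right) among those called by edgeR. The dotted line marks 1 RPKM. The genes were chosen for large called changes, which favours groups that stand apart, so that their separation carries no weight. On the left, 6 of the 8 stay under 1 RPKM in every library.

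The largest rise was that of Cyp1b1, an enzyme of hormone and xenobiotic metabolism. It had 9 and 8 counts in the control libraries and 320 and 283 with auxin, or 0.123 and 0.106 RPKM against 4.60 and 3.28 RPKM. The log2 fold change was 5.08 ± 0.28 (SE, edgeR adjusted p = 6.67e-07). Its peak (chr17:79713646-79714663, fold enrichment 3.98) lay downstream of the 5′ end. Msx1, a homeobox gene of limb and craniofacial development, had 0.454 and 0.569 RPKM without auxin and 2.36 and 2.67 RPKM with auxin (log2 fold change 2.29 ± 0.22, edgeR adjusted p = 4.44e-05). Olig3, a bHLH factor of the neural tube, had 0.275 and 0.132 RPKM and then 0.828 and 0.899 RPKM (2.08 ± 0.42, edgeR adjusted p = 0.00396), with a peak of 934 bp over its 5′ end (chr10:19356508-19357441). The other 5 rested on few counts. Thbs2, a matrix glycoprotein, had counts of 3 and 1, then 16 and 13 with auxin. Tmem200b had 2 and 2, then 10 and 14. The iron-binding protein gene Mfi2 had 4 and 3, then 12 and 25. The kinesin Kif17 had 5 and 1, then 14 and 15, and Pigz, of GPI anchor synthesis, had 2 and 8, then 20 and 27. Their log2 fold changes were 2.14 to 2.72. Each of these 5 calls was lost in edgeR without some library. Without library 2 of no auxin the adjusted p was 0.0768 for Thbs2, 0.084 for Tmem200b and 0.185 for Kif17. Without library 1 of no auxin it was 0.0855 for Tmem200b and 0.0703 for Pigz, and without library 2 of auxin it was 0.119 for Mfi2, all from edgeR.

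The genes that fell started higher. Ramp3, a partner of calcitonin-type receptors, had 2.49 and 2.75 RPKM without auxin and 1.07 and 0.904 RPKM with auxin (log2 fold change −1.42 ± 0.27, edgeR adjusted p = 0.00262). Evx1, a homeobox gene of the primitive streak next to the Hoxa cluster, had 2.56 and 1.98 RPKM and then 1.08 and 0.991 RPKM (−1.14 ± 0.21, edgeR adjusted p = 0.00264). The chloride channel Ano1 had 2.82 and 2.34 RPKM and then 1.26 and 1.16 RPKM (−1.09 ± 0.15, edgeR adjusted p = 0.000504). Nefm, a neurofilament subunit, lies in the chromosome 14 region with a peak over its 5′ end (chr14:68124394-68125543) 510484 bp from the nearest CUT&RUN peak. It had 2.37 and 2.69 RPKM and then 1.11 and 1.38 RPKM (−1.01 ± 0.15, edgeR adjusted p = 0.000693). Abtb2 fell from 1.75 and 2.01 RPKM to 0.929 and 1.05 RPKM. The zinc finger gene Insm1, the craniofacial homeobox gene Alx1 and Synpo2l, a muscle protein gene, also fell, from at most 0.819 RPKM. These 3 calls were less firm. For Alx1 the edgeR adjusted p was 0.129 without library 2 of no auxin and 0.09 without library 1 of auxin, and for Synpo2l it was 0.167 without library 1 of no auxin, 0.0605 without library 1 of auxin and 0.0556 without library 2 of auxin. For Insm1 it was 0.0619 and 0.272 without library 1 or 2 of no auxin, and 0.0761 and 0.214 without library 1 or 2 of auxin. With DESeq2 the adjusted p was 0.12 for Alx1 and 0.142 for Synpo2l.

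Of the 30 transcription factor genes, 23 were tested, and 8 rose and 2 fell by edgeR (13.0% and 14.5% over all tested genes). Of the 8, 4 were Hox genes. Hoxc4 had 1.10 and 1.46 RPKM without auxin and 2.80 and 2.79 RPKM with auxin (log2 fold change 1.12 ± 0.20, edgeR adjusted p = 0.00194), and Hoxb13 had 0.955 and 0.953 RPKM and then 1.80 and 2.48 RPKM (1.18 ± 0.25, edgeR adjusted p = 0.0051). Hoxa9 and Hoxc5 also rose, but the edgeR adjusted p for Hoxa9 was 0.0674 without library 2 of no auxin and 0.317 without library 2 of auxin, and that for Hoxc5 was 0.117 without library 2 of auxin and 0.0744 with DESeq2. Hoxd8 (log2 fold change 1.22 ± 0.43, edgeR adjusted p = 0.0546) and Hoxc10 (0.32 ± 0.22, edgeR adjusted p = 0.313) were not called. Hoxc5 and Hoxc10 share a peak of 290 bp. Among the genes of the other homeobox list described here, Msx1 and Onecut2 (0.210 and 0.238, then 0.721 and 0.945 RPKM) rose and Alx1 fell. Evx1, a homeobox gene that the list does not hold, also fell, as given above. Irx1, Irx5, Phox2a, Tlx2, Nkx2-4 and Lmx1b were not called. The forkhead gene Foxp1 fell (1.53 and 1.65, then 1.08 and 1.02 RPKM, log2 fold change −0.61 ± 0.11, edgeR adjusted p = 0.00191), and of the bHLH genes only Olig3 was called.

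Outside these lists the called genes were scattered. Slc22a17, an organic ion transporter family member in the chromosome 14 region, rose from 3.37 and 3.40 to 8.00 and 7.90 RPKM (log2 fold change 1.23 ± 0.13, edgeR adjusted p = 5.86e-05), and Slc22a23 from 0.671 and 0.393 to 1.03 and 1.21 RPKM. Of 11 tested ion channel genes, 2 rose by edgeR, beside 13.0% of all tested genes. They were the calcium channel Cacna1g and the potassium channel Kcnh3, with 1.70 and 0.62 on the log2 scale. Igf2r also rose, by 0.29. Bmp7 (0.38 ± 0.12, edgeR adjusted p = 0.0351) and Zfp287 (0.74 ± 0.19, edgeR adjusted p = 0.0133) rose as well, but the edgeR adjusted p of Bmp7 was 0.185 without library 2 of no auxin and 0.138 without library 2 of auxin, and that of Zfp287 was 0.0646 without library 1 of no auxin. DESeq2 gave 0.16 for Bmp7 and 0.092 for Zfp287. Of the tested signalling and adhesion genes, Fgf3, Fgf11, Fgf18, Wnt5b, Wnt9a, Pcdh8 and Pcdh10 were not called, with edgeR adjusted p-values from 0.109 for Wnt5b to 0.872 for Pcdh8. Of the printed promoters, Dio3 rose from 9.07 and 12.4 to 18.6 and 23.4 RPKM (0.97 ± 0.14, edgeR adjusted p = 0.000646) and Nfatc2 fell from 1.41 and 1.75 to 0.857 and 1.04 RPKM (−0.72 ± 0.15, edgeR adjusted p = 0.00457). Slc5a5 was not called, and Hes7, Chat and Cmtm5 were too low to be tested. Of the 8 genes with the highest RNA, Tpm3, Eef1d and Crip2 fell and Pced1b and Mfsd1 rose, with log2 fold changes of −0.25, −0.28, −0.25, 0.38 and 0.40. Rbm38, Kdelr1 and Sept9 were not called. The edgeR adjusted p of Crip2 was 0.0822 and 0.135 without library 1 or 2 of no auxin, 0.181 without library 1 of auxin, and 0.129 with DESeq2. In the chromosome 14 region, 32 genes had only ChIP-only peaks at the 5′ end.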

How the data were processed

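H3K27me3 was mapped by ChIP-seq in 1 sample and by CUT&RUN in 1 sample, and RNA was counted in 4 libraries. Per the file headers, the authors counted fragments with featureCounts 1.6.3 per gene name over exons of an mm10 annotation on the reverse strand, and the table holds raw counts. The submitters' processing notes name STAR 2.6.1d, Bowtie2 2.4.1, Picard 2.18.11, SAMtools 1.9 and MACS2 2.1.1, and the builds mm10 and dm6. The deposited peak lists give a score, a fold enrichment as a ratio, a −log10 p and a −log10 q for each broad peak, called by the authors on 1 sample each. For the peak calling, the control library and cutoff were not given in the sources used here, and the depth of the chromatin libraries is unknown.

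A peak counted as shared when at least 1 bp lay in a CUT&RUN peak. Gene 5′ ends, exons and bodies came from the count table's annotation columns, merged by gene name, which placed 32743 of 33006 genes and can join distant copies into 1 model. A peak was put in the first of promoter (1 kb on either side of a 5′ end), exon, intron or intergenic that it touched. RefSeq promoters (assembly GRCm38.p6) were matched by symbol. Of 17135 matched symbols, 91.3% had a RefSeq start within 1 kb. RPKM values were computed as edgeR's CPM (TMM-scaled) divided by exon length in kb. The test was edgeR 4.0.16 in R 4.3.3 (quasi-likelihood, TMM, default filter on low counts, no block, Benjamini-Hochberg, threshold 0.05, two-sided). DESeq2 1.42.0 was an alternative. In counts simulated from these libraries in which 200 of 13280 genes had a log2 change of 1, edgeR called 189 of the 200 and 7 unchanged genes. The changed genes were drawn from those with at least 200 counts in total. The spread between replicates was set to a fixed value and not taken from these libraries. The result therefore does not carry over to genes with few counts or to the spread seen here.

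Named regions were the 5 strongest, the 5 widest and those at the edge of the rule. Named genes were the 8 with the highest level, the 8 largest rises, the 8 largest falls, the 8 strongest promoter peaks and members of the gene lists. The members and lists were chosen with earlier results of these data known. The printed promoters, the region of chromosome 14 and the split by mean level were chosen after the values were seen. Some members of the gene lists are not reported here.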

Additional observations from a re-analysis of the deposited data

How the results depend on the processing

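Each value is given in the order of the count of ChIP-only peaks, their median width and fold enrichment, their share at a 5′ end, the median RPKM and share under 1 RPKM of genes with only ChIP-only peaks, and the genes called with auxin (higher, lower). As reported these are 19753, 396 bp, 3.25, 7.68%, 0.0623 RPKM, 79.5% and 105 (84, 21), with a median log2 fold change of 0.24. With only ChIP-seq peaks of −log10 q of at least 2 they were 5877, 396 bp, 3.69, 10.0%, 0.101 RPKM, 78.9% and 53 (44, 9). With only CUT&RUN peaks of −log10 q of at least 2 they were 33237, 425 bp, 3.27, 7.77%, 0.0292 RPKM, 85.8% and 180 (146, 34). With CUT&RUN peaks widened by 1 kb they were 11855, 382 bp, 3.24, 7.30%, 0.0558 RPKM, 78.6% and 83 (68, 15). Requiring CUT&RUN to cover at least 0.5 of a shared peak gave 23930, 418 bp, 3.26, 8.37%, 0.0643 RPKM, 80.1% and 115 (92, 23). A window of 500 bp gave a 5′ share of 4.31%, 0.0334 RPKM, 86.4% and 59 (50, 9), and a window of 2.5 kb gave 15.7%, 0.127 RPKM, 70.0% and 157 (120, 37), with a median log2 fold change of 0.19. Taking every gene with a ChIP-only peak gave 0.0346 RPKM and 84.0%, the genes past the count filter gave 1.03 RPKM and 49.5%, and protein-coding genes alone, added after seeing the data, gave 0.221 RPKM and 72.9%. Also added then, the peak's centre gave a 5′ share of 5.73%, and leaving out the chromosome 14 region gave 0.0657 RPKM. DESeq2 called 59 genes (44, 15), all of them among the 105. It gave no adjusted p for Thbs2, Tmem200b, Mfi2, Kif17, Pigz, Olig3, Hoxa9 and Insm1, which edgeR had called. The cause of the difference in calls was not tested. For the alternative settings, counts of calls stand without the number tested or a share over all tested genes. They do not set these genes against the rest. Leaving out 1 library at a time gave medians of 0.0559 to 0.0585 RPKM, 76 to 114 calls (57 to 95 higher, 19 or 20 lower) and median log2 fold changes of 0.19 to 0.36.

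The replicate numbers are shared by the groups, but no label says that they pair the samples, and the deviations of same-numbered libraries correlated with r = 0.227 over genes, with 2 pairs. With a replicate block edgeR called 163 of these genes (129 higher, 34 lower), among them the 105 called without it. The share of all tested genes called with the block is not given here, so the counts do not set these genes against the rest. Of 38 named genes called by edgeR, 24 kept the call under the 8 alternative fits or libraries, Olig3 kept it under those that gave it a value (DESeq2 gave none), and 13 lost it under at least 1. Named genes that were not called turned sign when a library was left out: the log2 fold change ran from −0.57 to 1.19 for Irx1, from −0.76 to 0.37 for Irx5, from −0.73 to 0.37 for Phox2a, from −0.038 to 0.037 for Kdelr1 and from −0.0032 to 0.093 for Sept9. The depth of the chromatin libraries is unknown, so that a region with no CUT&RUN peak is not shown to lack the mark.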

Other observations

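Gene bodies gave the same order as 5′ ends. Of 1826 genes whose body held a ChIP-only peak and no shared peak, 74.8% (95% Wilson interval 72.7% to 76.7%) had a mean under 1 RPKM without auxin. The share was 87.6% (86.2% to 88.9%) of the 2288 genes with both kinds of peak, 88.5% (86.8% to 90.1%) of the 1447 with shared peaks alone and 62.2% of the 27182 without a ChIP-seq peak. These genes include those described by their 5′ ends, and the intervals cover counting error only. Here too the ChIP-seq peaks are of 6 h and the RNA is of 12 h. Outside chromosome 14, only 2 windows of 5 Mb with at least 20 ChIP-seq peaks reached a ChIP-only share of 85% or more. They lay at 5 to 10 Mb on chromosome 7 and at 100 to 105 Mb on the X chromosome, with 18 of 20 peaks each.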
